A study of Mus musculus with 12 samples.

Results

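The tumour necrosis factor (TNF) superfamily was followed in mouse aorta before and after 3 days of a challenge that leads to aortic dissection. Members were taken by gene name alone: Tnf, Lta, Ltb and every gene named Tnfsf (ligands) or Tnfrsf (receptors) followed by a number. The rule found 33 genes on 43 probes and 70 spots of the array, among 34797 gene names, 55681 probes and 59305 spots in all. A probe was kept when every array of some group (3 of 3) flagged its signal as well above background, and 28 of the 33 members, among 22769 genes, could be tested. Of the 28, 19 were well above background on all 12 arrays, and 5 (Ltb, Tnfrsf21, Tnfsf8, Tnfsf11 and Tnfsf14) were kept through the smSocs3-KO day 3 arrays alone, so that a higher level in that group was a condition of testing them. The 28 were 10 ligands and 18 receptors, and the symbols of all 33 members stand in the RefSeq gene table.

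The 12 arrays measured RNA of aorta from male mice of a mixed background given as 129S5/SvEvBrd, C57BL6 and SJL, with no age in the labels. All mice carried floxed Socs3 alleles, Socs3 being the feedback inhibitor of cytokine signalling through Stat3. The WT mice were Socs3fl/fl littermates without Cre, and the smSocs3-KO mice carried SM22-Cre as well, a Cre recombinase driven by a smooth muscle promoter. By that design other cells of the aortic wall are meant to keep Socs3, which whole-tissue arrays cannot show. Each genotype was sampled without infusion (before) and after 3 days of minipump infusion (day 3) of beta-aminopropionitrile (BAPN, 150 mg/kg/day), which blocks the cross-linking of collagen and elastin, with angiotensin II (AngII, 1000 ng/kg/min), with 3 arrays in each of the 4 groups.

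The deletion was not seen in the level of Socs3 itself, so the groups are called by their labels. Its log2 levels ranged from 0.30 to 0.75 in WT and from 0.24 to 1.46 in smSocs3-KO before the challenge, and from 0.64 to 2.30 and from 2.28 to 4.13 at day 3. Slide 1 held all 6 WT arrays and smSocs3-KO before replicate 1, and slide 2 held the other 5 arrays, so slide and genotype cannot be told apart at day 3. WT day 3 replicate 4 stood apart: its 6 cell cycle genes had a mean log2 level of -0.70, against 2.07 and 2.08 on the other WT day 3 arrays, and from -3.37 to -3.04 before. The lowest mean correlation with its group was that of smSocs3-KO before replicate 1, at 0.964, beside 0.967 for WT day 3 replicate 4. That smSocs3-KO array also had the lowest 75th percentile, 7.48 in log2. Its lowest level flagged as well above background, -3.85, was the highest of the arrays. Smooth muscle markers were well above background on all arrays (6 of 6), as the tissue label requires. These are whole-tissue samples, in which fewer cells of a type and less RNA per cell cannot be told apart.

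Ligands of this family are trimeric membrane or shed proteins made mostly by immune and stromal cells, and their receptors either carry a death domain, which can lead to apoptosis, or recruit TRAF adaptors that feed NF-kappaB and MAP kinase signalling. A small group of decoy receptors binds ligand without passing on a signal. In the vessel wall the family is best known for TNF itself, for the receptor of TWEAK (Tnfrsf12a, also called Fn14), which is induced in injured tissue, and for the balance of RANKL (Tnfsf11) and its decoy osteoprotegerin (Tnfrsf11b), which sets osteoclast formation in bone and is linked to vascular calcification.

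Members that the results turn on are shown first by the 250 bases before their RefSeq start (build GRCm38.p6, 5′ to 3′ on the strand of the gene), because each of those shown passed a threshold given below in the challenged aorta. RefSeq windows were at hand for 26 of the 33 members, which had 30 windows. Capitals mark a match, on either strand, to the NF-kappaB consensus, to the STAT motif TTCNNNGAA or to the AP-1 motif TGANTCA. The windows are chr7:143685876-143686125 on the minus strand (Tnfrsf23), chr14:78308044-78308293 on the minus strand (Tnfsf11), chr8:10006217-10006466 on the plus strand (Tnfsf13b, the first of 2 starts), chr14:61046856-61047105 on the minus strand (Tnfrsf19, the first of 2 starts), chr17:35194257-35194506 on the plus strand (Ltb) and chr17:57194182-57194431 on the minus strand (Tnfsf14).
Tnfrsf23: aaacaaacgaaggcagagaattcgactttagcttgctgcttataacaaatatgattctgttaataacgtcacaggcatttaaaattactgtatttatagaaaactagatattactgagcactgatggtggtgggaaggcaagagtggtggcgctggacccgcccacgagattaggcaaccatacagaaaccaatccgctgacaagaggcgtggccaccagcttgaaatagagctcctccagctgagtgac
Tnfsf11: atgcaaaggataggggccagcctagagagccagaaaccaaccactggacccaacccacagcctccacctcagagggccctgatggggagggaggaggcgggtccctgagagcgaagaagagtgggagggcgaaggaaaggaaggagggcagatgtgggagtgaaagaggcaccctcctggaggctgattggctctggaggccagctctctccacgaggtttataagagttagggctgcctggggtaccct
Tnfsf13b: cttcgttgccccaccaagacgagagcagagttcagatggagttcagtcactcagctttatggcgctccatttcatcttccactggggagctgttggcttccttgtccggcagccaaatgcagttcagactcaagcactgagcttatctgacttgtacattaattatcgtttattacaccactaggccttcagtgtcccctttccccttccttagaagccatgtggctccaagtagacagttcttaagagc
Tnfrsf19: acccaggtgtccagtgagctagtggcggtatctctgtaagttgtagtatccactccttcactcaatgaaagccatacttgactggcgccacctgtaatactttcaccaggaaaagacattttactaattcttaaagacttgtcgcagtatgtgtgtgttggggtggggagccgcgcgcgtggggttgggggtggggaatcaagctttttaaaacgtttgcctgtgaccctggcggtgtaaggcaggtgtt
Ltb: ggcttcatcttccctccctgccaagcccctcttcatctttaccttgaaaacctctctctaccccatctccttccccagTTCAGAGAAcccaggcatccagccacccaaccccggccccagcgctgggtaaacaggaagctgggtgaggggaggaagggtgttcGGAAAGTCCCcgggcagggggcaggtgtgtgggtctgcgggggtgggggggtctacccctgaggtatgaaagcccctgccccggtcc
Tnfsf14: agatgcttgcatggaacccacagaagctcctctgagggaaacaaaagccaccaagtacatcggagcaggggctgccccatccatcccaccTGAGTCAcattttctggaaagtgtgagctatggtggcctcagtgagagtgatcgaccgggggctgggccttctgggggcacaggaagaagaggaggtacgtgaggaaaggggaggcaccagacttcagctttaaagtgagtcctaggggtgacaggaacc

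The Ltb window held 1 NF-kappaB match, 87 bases before the start, and 1 STAT match, 172 bases before it. The Tnfsf14 window held 1 AP-1 match, 160 bases before the start, and the window of the second Tnfsf13b start, not shown, held another, at 127 bases. Over the windows of all genes, 3.9% of 32851 held the NF-kappaB consensus, 7.02% the STAT motif and 6.75% the AP-1 motif. Among the 30 member windows these matches stood in 3, 7 and 4. The matches are letters in a window and were not set against any binding data. In the windows of Tnfrsf23, Tnfsf11, Tnfsf13b and Tnfrsf19 that are shown, none of the 3 motifs was spelled out.

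Levels below are log2 processed signals of the probe minus the 75th percentile of its array, so that 0 is the level of a probe brighter than 75% of probes. Differences are log2 differences of group means with their standard error (SE) from limma, and a difference of 1 is a 2-fold change. A member is said to have risen or fallen at a Benjamini-Hochberg adjusted p under 0.05 over the 22769 genes. Levels of different members are not set against each other, since each has its own probe.

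**Figure D1:**
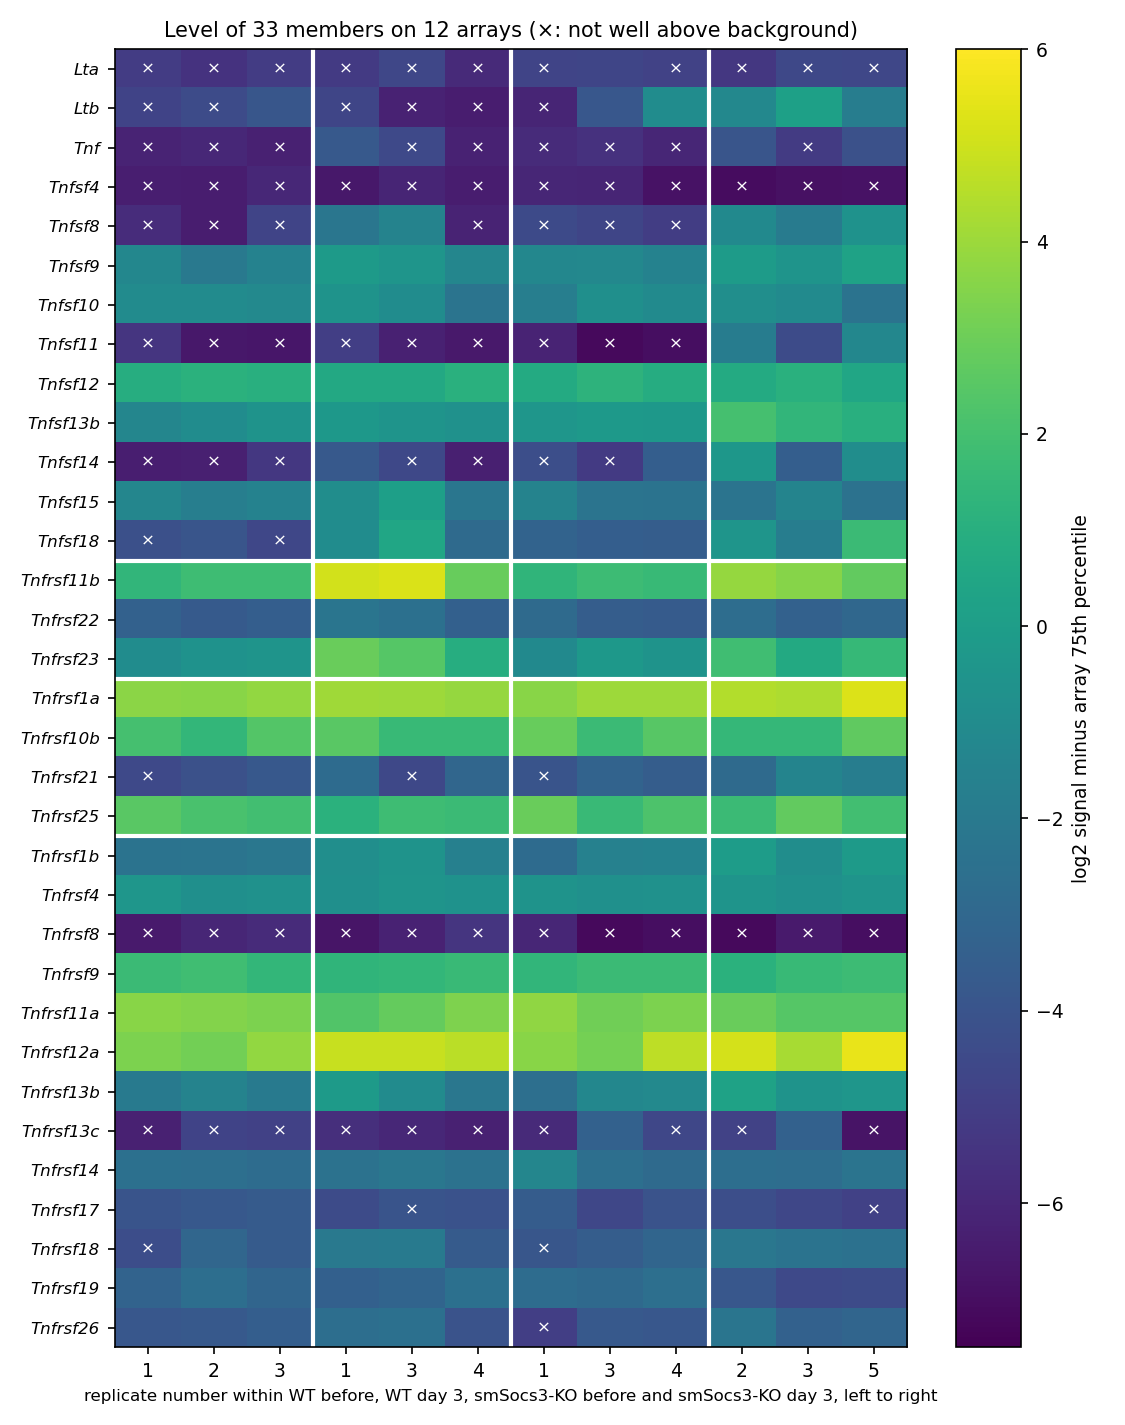
Log2 level (colour, signal minus the 75th percentile of the array) of all 33 members on the 12 arrays, in the columns WT before, WT day 3, smSocs3-KO before and smSocs3-KO day 3, with ligands, decoy receptors, death domain receptors and other receptors in separate blocks. A cross marks an array on which the probe was not well above background, as Tnf was on 9 of the 12, and colours are to be compared along a row.

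In the WT aorta 2 members passed as higher, both of them decoy receptors, while the remaining decoy, Tnfrsf22, did not pass. The largest difference, 3.16, was that of a ligand, Tnfsf18, which did not pass either (adjusted p = 0.0594). Tnfrsf11b (osteoprotegerin, the soluble decoy of RANKL and TRAIL) rose 6.65-fold and Tnfrsf23 (a decoy receptor of TRAIL) rose 6.90-fold. The 2 were 2 of 28 members, where 3.58% of all genes tested rose, and no member fell, where 1.09% of all genes did. The median difference of the 28 members was 0.48, against -0.02 over all genes, and that of the 19 members measured on every array was 0.29. Of the 28, 7 lay wholly above their levels before the challenge, where 20.7% of all genes did, and 1 wholly below, where 14.6% did.

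Single arrays decided how many members passed in WT. Without WT day 3 replicate 4, 9 of 28 passed: Tnfrsf11b, Tnfrsf18, Tnfrsf1b, Tnfrsf22, Tnfrsf23, Tnfsf18, Tnfsf8 and Tnfsf9 higher and Tnfrsf11a lower. Without any 1 of the other 5 WT arrays, or without smSocs3-KO before replicate 4, 0 passed. An array left out changes the shared estimate of spread for every gene. Counts of this kind, here and below, are therefore not read as a result about the members or their pathway. In the 23 alternatives tried, the Tnfrsf11b difference stayed between 2.31 and 3.50 with adjusted p between 0.000226 and 0.155, and the Tnfrsf23 difference between 2.38 and 3.37 with adjusted p between 0.000434 and 0.149.

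The 3 WT levels of Tnfrsf11b before the challenge were 1.37, 1.78 and 1.81, and the 3 at day 3 were 5.07, 5.23 and 2.86, the last on replicate 4. All day 3 arrays lay above all arrays before. The difference was 2.73 (SE 0.54, adjusted p = 0.033). In smSocs3-KO the levels went from 1.32, 1.75 and 1.61 to 3.87, 3.57 and 2.74, again without overlap, and the difference of 1.83 (SE 0.54, adjusted p = 0.0864) did not pass. The probe lies in mm9 at chr15:54082760-54082819 on the minus strand.

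Tnfrsf23 ran from -0.94, -0.63 and -0.50 in WT before to 2.91, 2.45 and 0.93 at day 3, where replicate 4 was again the lowest. The groups did not overlap, and the difference was 2.79 (SE 0.47, adjusted p = 0.0304). The smSocs3-KO levels were -1.11, -0.28 and -0.56 before and 1.87, 0.71 and 1.53 at day 3, a difference of 2.02 (SE 0.47, adjusted p = 0.0504) just outside the threshold. Tnfrsf22, the remaining decoy and the chromosome 7 neighbour of Tnfrsf23, differed by 0.80 (SE 0.31, adjusted p = 0.13) in WT and by 0.36 (SE 0.31, adjusted p = 0.481) in smSocs3-KO. For none of the 3 decoys did the genotype by challenge interaction pass, with estimates from -0.90 to -0.44.

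Tnfrsf22, Tnfrsf23 and Tnfrsf26 are close relatives in a cluster on chromosome 7, so it matters what their probes read. The first 30 of the 60 bases of each probe that stands for its gene are shown, as deposited with the arrays (mm9, minus strand, chr7:150826673-150826732, chr7:150851714-150851773 and chr7:150793990-150794049).
Tnfrsf22: accggaaatgccagtgccgaacaggtcttt
Tnfrsf23: cctgggtcagtgaactcaactgagagcaat
Tnfrsf26: ccaacactatagaactattcacttgataaa

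Over the 8 pairs of probes for different genes of this cluster, the longest run of identical bases was 8, and over all 903 pairs of member probes it was 12. Cross-hybridisation to transcripts outside the probes was not tested, so the values of the cluster remain uncertain to that extent. The second Tnfrsf22 probe gave 1.38 (SE 0.42) in WT and 0.88 (SE 0.42) in smSocs3-KO, the same direction as the first. The second Tnfrsf23 probe was well above background on 4 arrays, all of them at day 3, and was not kept. Tnfrsf26 differed by 0.62 (SE 0.46, adjusted p = 0.406) in WT and by 1.29 (SE 0.46, adjusted p = 0.132) in smSocs3-KO.

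**Figure D2:**
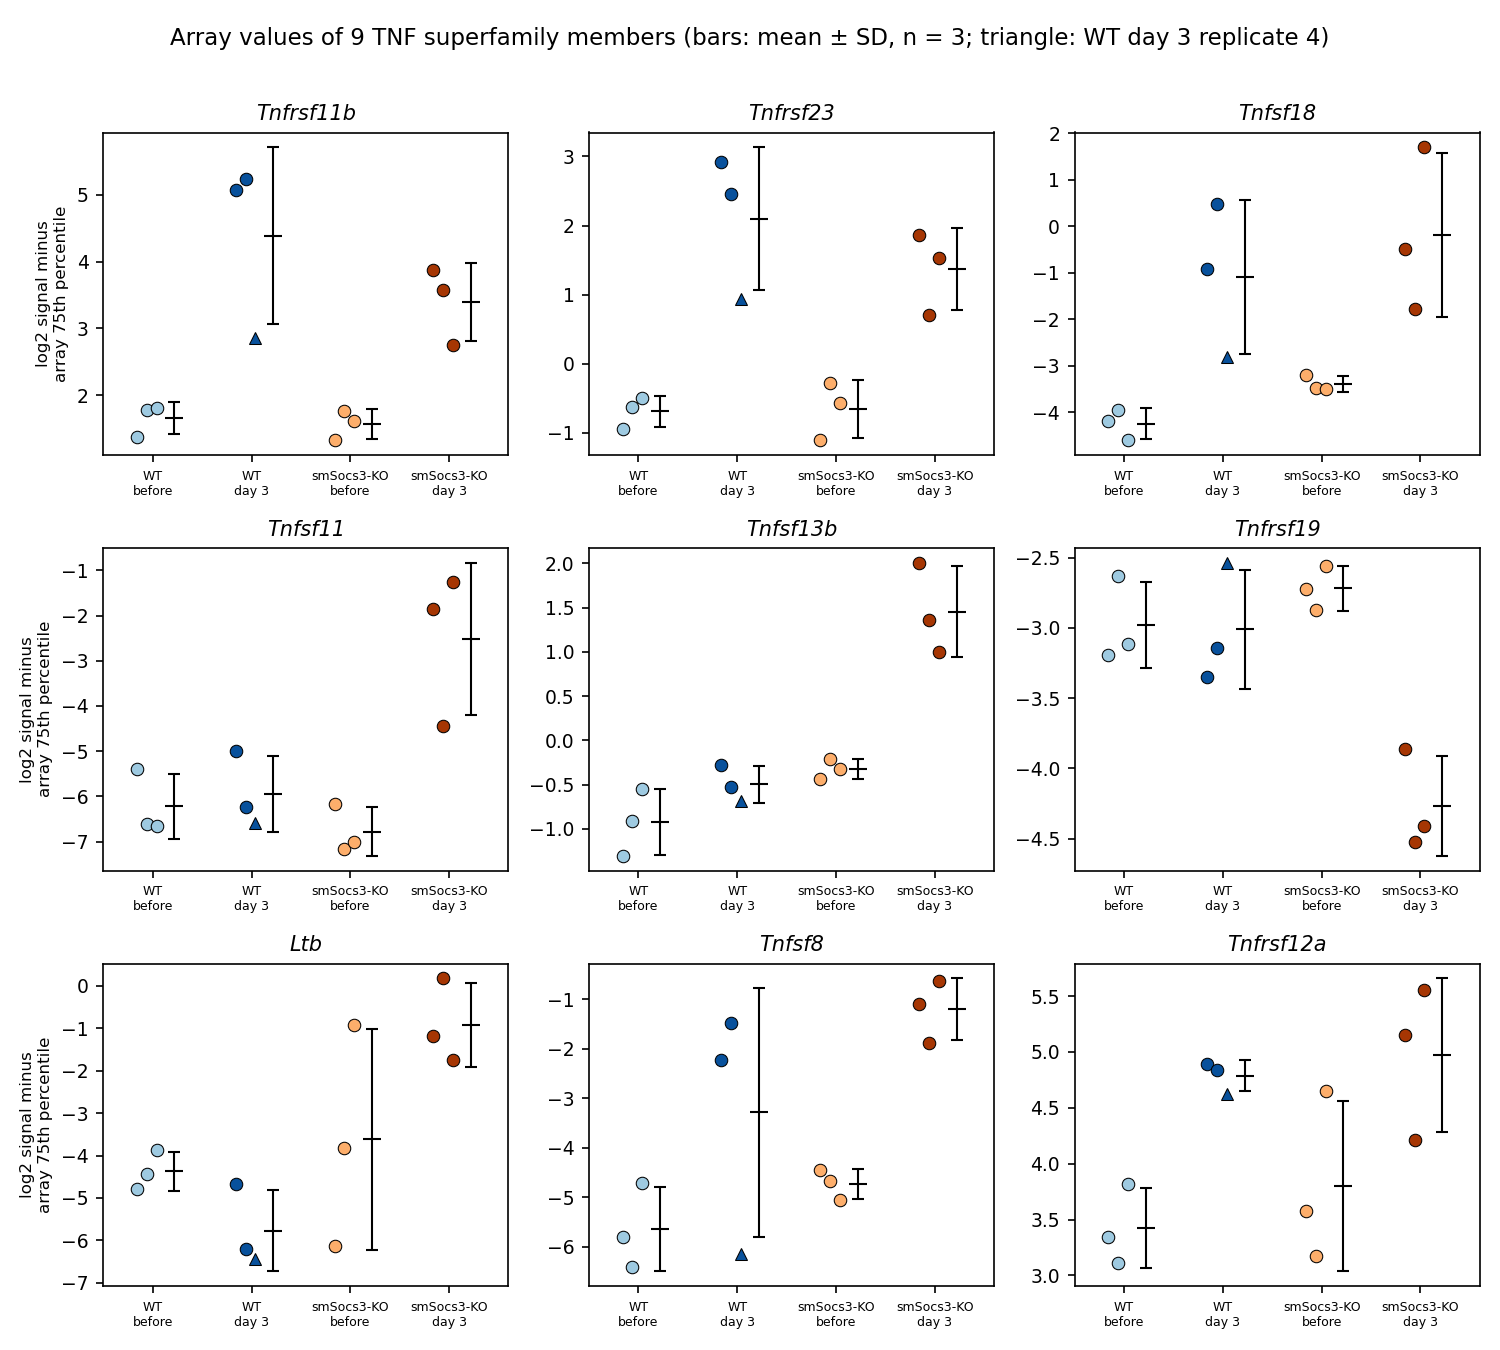
Log2 level (signal minus the 75th percentile of the array) of 9 members by group, with each array as a point and the mean with SD (n = 3) beside it, each panel on its own axis. The triangle is WT day 3 replicate 4, which was the lowest of its group for Tnfrsf11b and Tnfrsf23, and the 3 smSocs3-KO day 3 arrays lie above the other 9 for Tnfsf13b and Tnfsf11.

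In smSocs3-KO Tnfsf13b (BAFF, a survival factor of B cells) rose, while Tnfrsf19 (TROY, a receptor known from developing hair follicles and the nervous system) fell. Tnfsf11 (RANKL, the osteoclast factor that is also made by activated lymphocytes) passed as higher too, but it was tested only through the group in which it was high. The 2 of 28 that passed as higher stand beside 1.71% of all genes tested, and the 1 that fell beside 0.733%. The median difference was 1.19 over the 28 members, -0.06 over all genes and 0.05 over the 19 members measured on every array, so the first value rests on the dim members. When only genes measured on all 12 arrays were tested, 4 of 19 members passed, beside 546 of 19551 genes. The 4 were Tnfsf13b, Tnfrsf1b and Tnfrsf23 higher and Tnfrsf19 lower. Of the 28, 13 lay wholly above their levels before the challenge, where 14.1% of all genes did, and 2 wholly below, where 14% did. The 13 include members kept through the day 3 arrays alone.

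The smSocs3-KO calls also rested on single arrays and on the slide. Without WT day 3 replicate 4, which enters through the shared estimate of spread, 10 members passed: Tnfrsf11b, Tnfrsf18, Tnfrsf1b, Tnfrsf23, Tnfsf11, Tnfsf13b, Tnfsf18, Tnfsf8 and Tnfsf9 higher and Tnfrsf19 lower. Without smSocs3-KO before replicate 1 or replicate 3, 0 passed, and without smSocs3-KO day 3 replicate 5, 1 did. With slide as a block 0 passed, at an adjusted p of 0.066 for Tnfsf11, whose levels before were at background, and at 1.72 (SE 0.30, adjusted p = 0.0612) for Tnfsf13b and -1.55 (SE 0.30, adjusted p = 0.0691) for Tnfrsf19. Within slide 2 alone 1 passed, Tnfsf8 (adjusted p = 0.0435), also at background before and tested only through the smSocs3-KO day 3 arrays.

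Tnfsf11 was not well above background on any of the 9 arrays outside the smSocs3-KO day 3 group. There its levels were -1.85, -4.43 and -1.26, all well above background, with replicate 3 far below the other arrays but above every array before the challenge. Since the levels before were at background, only a bound on the fold between the group means can be given. The Tnfsf11 mean was at least 3.95-fold higher at day 3 (adjusted p = 0.0235), with measured group means of -6.78 and -2.52. Such a bound, here and below, allows for background but not for the spread between arrays. The probe entered the test through these 3 arrays alone, so the p says little about it beyond those levels. Without smSocs3-KO day 3 replicate 5 the adjusted p was 0.0874. In WT the means of -6.22 before and -5.94 at day 3 were both at background, and no fold is given.

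The receptor and the decoy of Tnfsf11 were well above background on all 12 arrays. Tnfrsf11a (RANK) had levels of 3.61, 3.52 and 3.33 in WT before and 2.34, 2.81 and 3.37 at day 3, groups that overlapped. Its smSocs3-KO levels of 3.75, 3.09 and 3.34 before lay above the 2.92, 2.44 and 2.46 at day 3. The differences, -0.65 in WT (SE 0.27, adjusted p = 0.158) and -0.79 in smSocs3-KO (SE 0.27, adjusted p = 0.122), did not pass. Without WT day 3 replicate 4 the WT value was -0.91, with an adjusted p of 0.0338.

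Tnfsf13b had levels of -0.43, -0.21 and -0.32 in smSocs3-KO before and 2.01, 1.36 and 0.99 at day 3, so that the groups stood well apart. The difference was 1.78 (SE 0.27, adjusted p = 0.0173), a 3.43-fold change. In WT it was -1.30, -0.91 and -0.55 before and -0.28, -0.53 and -0.68 at day 3, overlapping, with a difference of 0.43 (SE 0.27, adjusted p = 0.324). Its receptors did not pass in either genotype: Tnfrsf17 (BCMA) gave -0.36 and -0.51 (adjusted p = 0.415 and 0.268), and Tnfrsf13c (the BAFF receptor) was not tested.

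For Tnfrsf13b (TACI, another receptor of BAFF) the answer depended on the probe. Its 3 kept probes gave 1.45 (SE 0.50), 0.21 (SE 0.21) and -0.55 (SE 0.44) for the smSocs3-KO response, none of which passed, and the brightest stands for the gene. The first 30 bases of the 3 probes, in that order, show that they read different parts of the gene (mm9, plus strand, chr11:60962770-60962829, chr11:60960405-60960464 and chr11:60954823-60954882).
Tnfrsf13b first probe: cctggagaatatagcctggctccatttgca
Tnfrsf13b second probe: atcttctgctgtttcttggtggccttggcc
Tnfrsf13b last probe: tcagctgtgactccacctgcacacagcacc

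Tnfrsf19 had levels of -2.72, -2.87 and -2.56 in smSocs3-KO before and -3.86, -4.53 and -4.41 at day 3, with no overlap. The difference was -1.55 (SE 0.26, adjusted p = 0.0215), and in WT it was -0.03 (SE 0.26, adjusted p = 0.951), from -3.19, -2.63 and -3.11 to -3.35, -3.14 and -2.54. All 12 arrays flagged the probe as well above background. The smSocs3-KO day 3 levels lay near the lowest level so flagged on those arrays, which was -4.99, -4.82 and -4.74. In the 23 alternatives the smSocs3-KO difference lay between -1.75 and -0.44, with adjusted p between 0.00474 and 0.215. The call was lost in 9 of them. A second Tnfrsf19 probe was so on 4 arrays and was not kept.

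**Figure D3:**
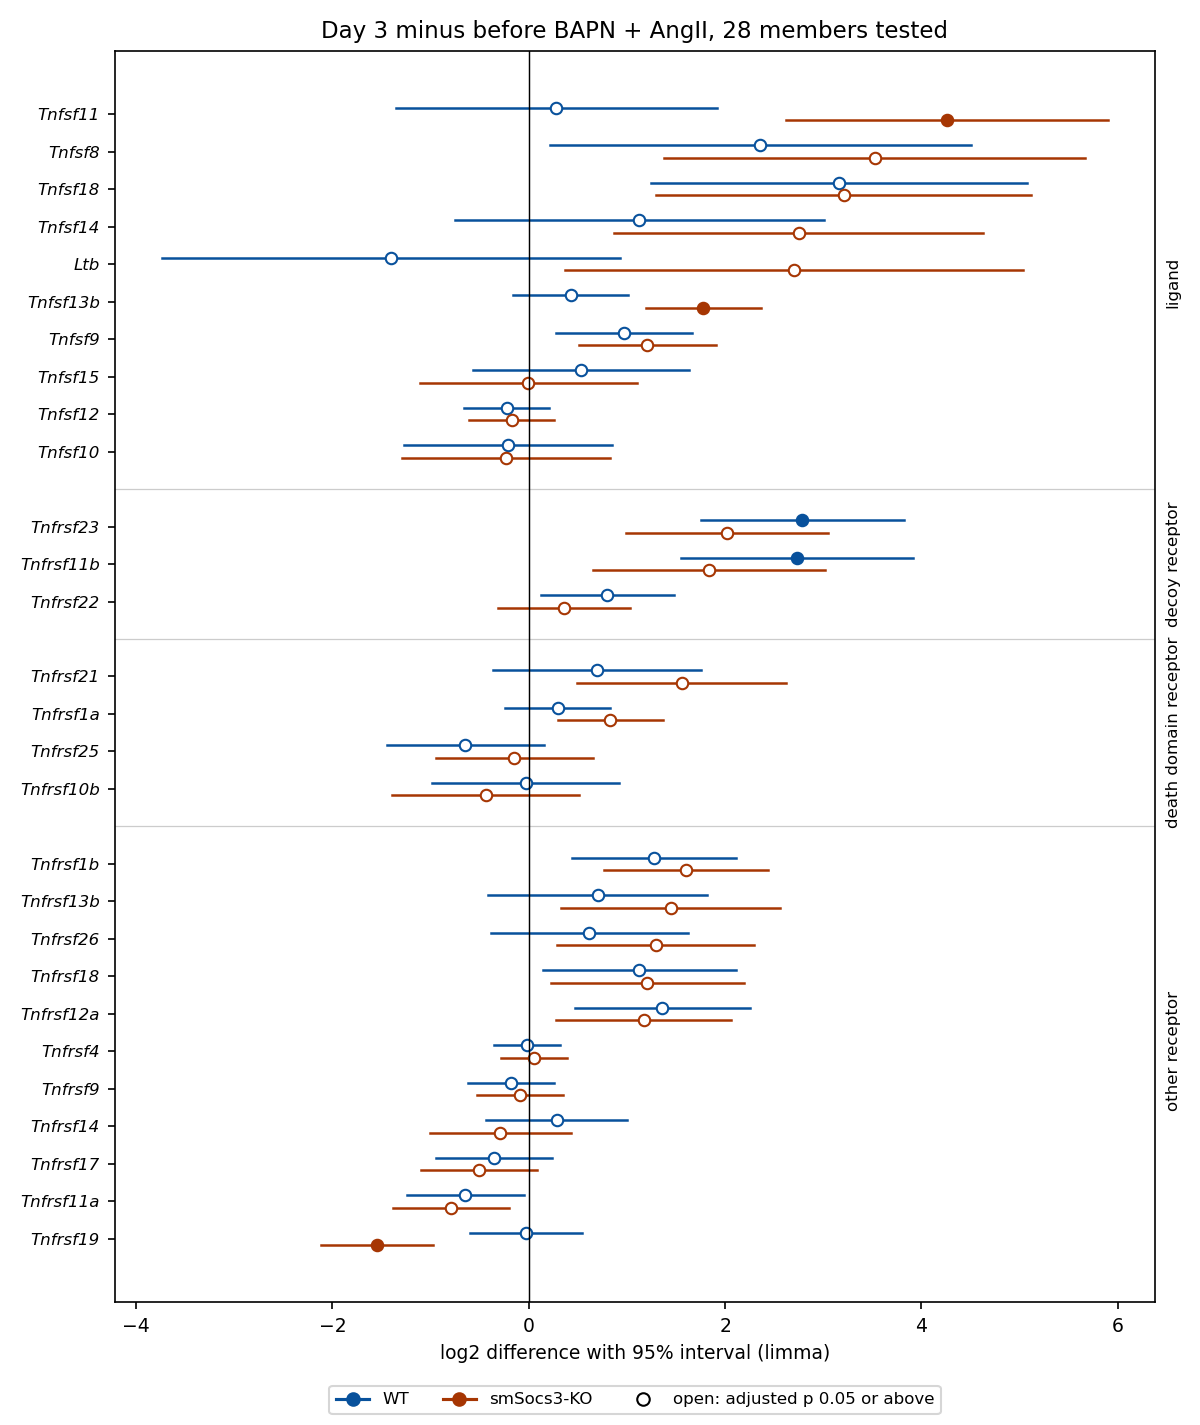
Log2 difference between day 3 and before (horizontal axis, with its 95% interval from limma) of the 28 members tested, in WT and smSocs3-KO, sorted by the smSocs3-KO value within each role. Filled points passed the adjusted threshold: Tnfrsf11b and Tnfrsf23 in WT, and Tnfsf11, Tnfsf13b and Tnfrsf19 in smSocs3-KO.

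The other ligands of immune cell costimulation had large but scattered differences. Tnfsf18 (the ligand of GITR) was well above background on 1 of 3 WT arrays before the challenge and on all 3 at day 3, at -4.18, -3.95 and -4.60 before and -0.93, 0.48 and -2.81 at day 3. The groups did not overlap, and the difference of 3.16 (SE 0.87, adjusted p = 0.0594) missed the adjusted threshold. In smSocs3-KO it went from -3.19, -3.49 and -3.50 to -0.48, -1.78 and 1.70, also without overlap, with a difference of 3.21 (SE 0.87, adjusted p = 0.072). Its receptor Tnfrsf18 (GITR, carried by regulatory and activated T cells) gave 1.13 (SE 0.45, adjusted p = 0.14) and 1.21 (SE 0.45, adjusted p = 0.146).

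Tnfsf8 (the ligand of CD30, made by activated T cells and myeloid cells) was at background on every array before the challenge. At day 3 it was at -1.10, -1.87 and -0.63 in smSocs3-KO, all well above background. The mean of these arrays was at least 9.33-fold higher than before (adjusted p = 0.0758). The 95% interval of the measured log2 difference was 1.38 to 5.67. Tnfsf8 was tested through these smSocs3-KO day 3 arrays alone, so the p and the interval say little beyond those levels. On the WT day 3 arrays it was at -2.22, -1.48 and -6.15, and replicate 4 was at background. Tnfsf9 (the ligand of 4-1BB) gave 0.97 (SE 0.32, adjusted p = 0.0881) in WT and 1.21 (SE 0.32, adjusted p = 0.0675) in smSocs3-KO. Its receptor Tnfrsf9 (4-1BB) gave -0.18 and -0.09 (SE 0.20 each), by 1 of its 2 probes, the other being well above background on 1 array.

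Tnfsf14 (LIGHT, a ligand of the lymphotoxin beta receptor and of Tnfrsf14) was well above background on all 3 smSocs3-KO day 3 arrays, at -0.36, -3.47 and -0.86, and on 1 of 3 before, at -4.25, -5.23 and -3.46. The lowest day 3 level lay just below the highest level before, and the difference was 2.75 (SE 0.85, adjusted p = 0.0984). Tnfsf14 too was tested only through these smSocs3-KO day 3 arrays. Its receptor Tnfrsf14 gave 0.28 (SE 0.32) in WT and -0.29 (SE 0.32) in smSocs3-KO. Tnfsf15 (TL1A) gave 0.53 (SE 0.50) and -0.00 (SE 0.50), and its death domain receptor Tnfrsf25 gave -0.65 (SE 0.36) in WT, with all day 3 levels below those before, and -0.15 (SE 0.36) in smSocs3-KO.

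Tnfrsf12a (Fn14, the TWEAK receptor) had levels of 3.34, 3.11 and 3.82 in WT before and 4.89, 4.84 and 4.63 at day 3, tight groups that did not overlap. The difference was 1.36 (95% interval 0.47 to 2.25, adjusted p = 0.0711). In smSocs3-KO the levels of 3.58, 3.17 and 4.65 before and 5.15, 4.21 and 5.55 at day 3 overlapped, and the difference was 1.17 (95% interval 0.28 to 2.06, adjusted p = 0.125). Its ligand Tnfsf12 (TWEAK) stayed between 0.50 and 1.22 on all 12 arrays, with differences of -0.22 and -0.17 (SE 0.20 each), and a second probe gave -0.32 and 0.02 (SE 0.32 each).

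The receptors of TNF were both measured on every array. Tnfrsf1a (the death domain receptor of TNF, found on most cells) was between 3.59 and 4.03 in smSocs3-KO before and at 4.47, 4.35 and 5.30 at day 3, with no overlap and a difference of 0.83 (SE 0.24, adjusted p = 0.0856). In WT its difference was 0.29 (SE 0.24, adjusted p = 0.457). A second probe for it gave 0.34 (SE 0.25) in smSocs3-KO and -0.07 (SE 0.25) in WT. Tnfrsf1b (the TNF receptor of immune and endothelial cells) was at -2.38, -2.29 and -2.17 in WT before and at -0.82, -0.58 and -1.61 at day 3, with a difference of 1.27 (SE 0.38, adjusted p = 0.0715). Its smSocs3-KO difference was 1.61 (SE 0.38, adjusted p = 0.0539), also without overlap.

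TNF itself could not be tested. The array carries its probe on 10 spots (mm9 chr17:35336795-35336854, minus strand). It was well above background on 3 arrays, all at day 3: WT replicate 1 and smSocs3-KO replicates 2 and 5. On these arrays 10, 10 and 9 of the 10 spots were well above background, and on the other 9 arrays at most 1 was. Fitted without a filter on dim probes, the difference was 1.33 (SE 0.54, adjusted p = 0.232) in WT and 1.41 (SE 0.54, adjusted p = 0.225) in smSocs3-KO, values that rest on levels at background before the challenge. Lta (lymphotoxin alpha, next to Tnf on chromosome 17) was well above background on 1 array, Tnfrsf13c on 2 by the better of its 2 probes, and Tnfsf4 (OX40 ligand) and Tnfrsf8 (CD30) on 0 of 12.

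Cell type markers moved with the challenge beside these values, and their part in them was not tested. The 7 macrophage markers tested were well above background on all 12 arrays. Their mean log2 level was 2.47 to 2.52 in WT before, 3.99, 3.54 and 2.62 at WT day 3, 2.55 to 2.93 in smSocs3-KO before and 3.79 to 3.85 at smSocs3-KO day 3. Their summed linear level, which the brightest markers dominate, overlapped between all groups, from 194 to 240, 164 to 281, 142 to 334 and 176 to 217. Of the macrophage markers, Cd14, Cd68 and Mrc1 passed as higher at day 3 in smSocs3-KO, where 1.71% of all genes did. None passed in WT, where 3.58% of all genes did. Yet 6 of the 7 lay wholly higher at day 3 in WT and 5 in smSocs3-KO, beside 20.7% and 14.1% of all genes. Their median differences were 1.04 in WT and 0.92 in smSocs3-KO. The T cell markers had mean log2 levels of -0.99 to -0.16 in WT before, -2.10 to -1.23 at WT day 3, -1.09 to -0.54 in smSocs3-KO before and -1.68 to -0.53 at smSocs3-KO day 3. Their summed level was 4.62 to 7.41, 3.98 to 5.74, 4.40 to 6.45 and 3.28 to 5.11. Of the T cell markers, Cd3d and Cd3g passed as lower at day 3 in WT and none passed in smSocs3-KO. The neutrophil markers had mean log2 levels of -0.73 to -0.11 in WT before and -0.05 to 0.79 at WT day 3. In smSocs3-KO they were at -0.87 to 0.29 before and 0.22 to 2.17 at day 3. Mpo passed as higher in WT and Ly6g in smSocs3-KO, while summed neutrophil levels overlapped in both genotypes. In smSocs3-KO all 6 smooth muscle markers lay lower at day 3 without overlap, none of them past the test, at mean log2 levels of 6.69 to 7.16 against 7.49 to 7.88 and summed levels of 1701 to 2015 against 2358 to 3534. The fibroblast markers had mean log2 levels of 5.64 to 6.10 against 5.17 to 5.34 and summed levels of 842 to 1169 against 744 to 811. In WT the smooth muscle means overlapped, at 7.62 to 7.65 before and 6.90 to 7.65 at day 3. The B cell markers had mean log2 levels of -1.70 to -1.54 in WT before and -2.51 to -1.93 at WT day 3. In smSocs3-KO they were at -1.89 to -1.45 before and -2.80 to -1.29 at day 3. Summed B cell levels overlapped in both genotypes, and no B cell marker passed.

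Before the challenge no member differed between the genotypes at the adjusted threshold by limma, where 0.0264% of all genes did. At an unadjusted p under 0.05 there was 1 member of 28, beside 1002 of the 22769 genes. The member was Tnfsf13b, whose levels of -0.43, -0.21 and -0.32 in smSocs3-KO all lay above the -1.30, -0.91 and -0.55 of WT, a difference of 0.60 (SE 0.27, adjusted p = 1.0). Tnfsf14 and Tnfsf18 lay higher without overlap as well, by 1.68 (SE 0.85) and 0.85 (SE 0.87), both with levels at background on most WT arrays. These 3 of 28 stand beside 6.49% of all genes, and no member lay wholly lower, where 4.6% of genes did. Of the members furthest in the other direction, Tnfsf15 at -0.52 (SE 0.50) and Tnfrsf26 at -0.51 (SE 0.46) overlapped, and Tnfsf11 was at background in both genotypes.

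At day 3 Tnfsf13b was higher and Tnfrsf19 lower in smSocs3-KO than in WT. The 1 higher of 28 stands beside 0.957% of all genes tested, and the 1 lower beside 0.154%. Tnfsf13b was at 2.01, 1.36 and 0.99 against -0.28, -0.53 and -0.68, a gap larger than the range of either group, and the difference was 1.95 (SE 0.27, adjusted p = 0.0131). Tnfrsf19 was at -3.86, -4.53 and -4.41 against -3.35, -3.14 and -2.54, without overlap, and differed by -1.26 (SE 0.26, adjusted p = 0.0473).

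With slide as a block, where the genotype difference rests on the 1 smSocs3-KO array of slide 1, the estimates were 1.79 (SE 0.49, adjusted p = 0.228) for Tnfsf13b and -1.26 (SE 0.48, adjusted p = 0.269) for Tnfrsf19, and no member passed. Without WT day 3 replicate 4 the Tnfrsf19 difference was -1.02 (adjusted p = 0.062) that of Tnfsf13b 1.86 (adjusted p = 0.0194), and Tnfrsf11b differed by -1.76 (adjusted p = 0.0222). The Tnfrsf19 call was lost in 19 of 22 alternatives, with differences between -1.46 and -0.34. That of Tnfsf13b was lost in 3 of 22, with differences between 1.67 and 2.18. The count was 1 without any 1 of the 3 WT arrays before, WT day 3 replicate 1 or 3, smSocs3-KO before replicate 3 or smSocs3-KO day 3 replicate 5. The 4 mesothelial markers had mean log2 levels of 1.67 to 1.81 in smSocs3-KO day 3 and -1.76 to 0.42 in WT day 3, and 1.53 to 3.03 and -1.33 to 1.24 before. Their summed linear level was 28.4 to 37.9 against 2.53 to 12.8 at day 3, and 25.7 to 56.9 against 3.68 to 21.6 before. The 6 fibroblast markers were higher in smSocs3-KO at day 3 as well, with mean log2 levels of 5.64 to 6.10 against 5.02 to 5.32 and summed levels of 842 to 1169 against 681 to 809. Of these 6 markers, Dpt and Pi16 passed as higher. The part of either list in the genotype differences was not tested.

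**Figure D4:**
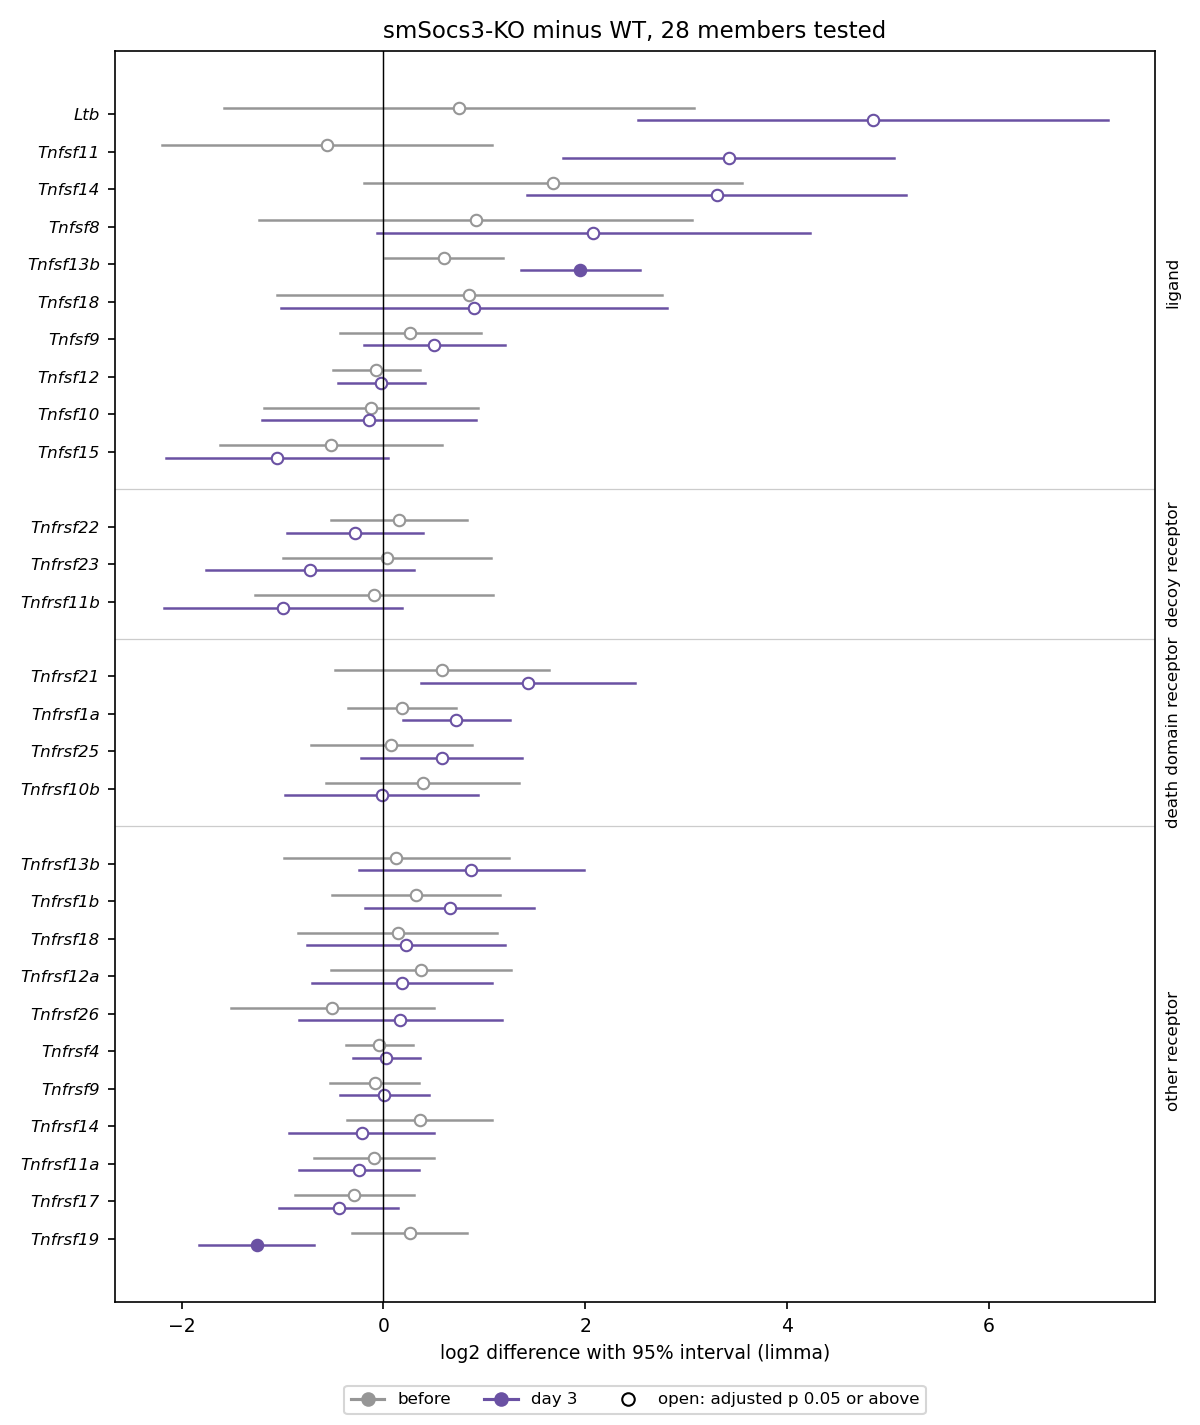
Log2 difference between smSocs3-KO and WT (horizontal axis, with its 95% interval from limma) of the 28 members tested, before the challenge and at day 3, sorted by the day 3 value within each role. Tnfsf13b and Tnfrsf19 at day 3 are the filled points, which passed the adjusted threshold. The open points of Ltb, Tnfsf11 and Tnfsf14 lie furthest to the right at day 3 and did not pass.

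Other ligands were also higher in smSocs3-KO at day 3 but did not pass. Ltb (lymphotoxin beta, which joins lymphotoxin alpha in the trimer that builds lymphoid tissue) was at -1.19, 0.18 and -1.76, all well above background, and at -4.68, -6.20 and -6.44 in WT, where it was at background on all 3 arrays. Its mean was at least 10.9-fold higher (adjusted p = 0.0568), with a 95% interval of the measured log2 difference of 2.52 to 7.18. Ltb was tested only through these smSocs3-KO arrays, and its WT levels were at background. The p and the interval therefore say little beyond those levels. Before the challenge the smSocs3-KO arrays of Ltb were scattered from -6.12 to -0.92, and with slide as a block the day 3 difference was 1.103 (SE 1.39). Its receptor Ltbr differed by 0.53 (SE 0.22, adjusted p = 0.275) at day 3.

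The Tnfsf11 mean was at least 3.598-fold higher at day 3 in smSocs3-KO (adjusted p = 0.0563). Tnfsf14 differed by 3.30 (SE 0.85, adjusted p = 0.0982), with 1 of 3 WT arrays well above background. In these and Tnfsf13b and Tnfrsf1a, 5 of 28 members, the smSocs3-KO arrays lay wholly above the WT arrays, where 7.87% of all genes did. Of the 5, Ltb, Tnfsf11 and Tnfsf14 were kept through that same group of arrays, so the count is no support for a shift of the family. Tnfrsf19 was the 1 member wholly below, where 12.7% of all genes were. The members furthest in the other direction were Tnfsf15 at -1.05 (SE 0.50, adjusted p = 0.331) and Tnfrsf11b at -0.99 (SE 0.54, adjusted p = 0.392), both with overlapping groups.

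Whether the challenge response itself differed between the genotypes was asked of the interaction. By limma no member passed, and 0 of the 22769 genes did, while 4 members and 1215 genes had an unadjusted p under 0.05. The 4 were Tnfsf11 (adjusted p = 0.735) and Ltb (adjusted p = 0.896), whose estimates rest on groups at background, Tnfsf13b at 1.35 (SE 0.38, adjusted p = 0.747) and Tnfrsf19 at -1.52 (SE 0.36, adjusted p = 0.681). A difference in response between the genotypes is therefore not established for Tnfrsf11b, Tnfsf11 or any other member, although each passed in a different genotype.

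The study's threshold for the arrays was p under 0.01 with a fold above 4 or below 0.25, used to choose genes for a network over several data sets. Applied here to the unadjusted p of limma, it picked partly different members. In WT it took Tnfrsf11b, Tnfrsf23 and Tnfsf18, 3 of 28 beside 1.29% of all genes. In smSocs3-KO it took Tnfrsf23, Tnfsf11, Tnfsf14, Tnfsf18 and Tnfsf8, 5 of 28 beside 1.63%. Tnfsf11, Tnfsf14 and Tnfsf8 were kept through the day 3 arrays alone, and the bound of 3.95-fold for Tnfsf11 does not reach 4-fold. Between the genotypes it took no member before the challenge, beside 0.242%, and Ltb, Tnfsf11 and Tnfsf14 at day 3, beside 1.11%, all of them kept through the smSocs3-KO day 3 arrays, and for Tnfsf11 the bound of 3.598-fold again falls short of 4-fold. For the interaction it took Tnfsf11, beside 0.307%, on levels at background in 3 of the 4 groups. Tnfsf13b and Tnfrsf19 changed by less than 4-fold and so fell outside it.

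Downstream of the receptors, the number of pathway genes that passed turned on single arrays. Of 80 listed adaptors, NF-kappaB subunits, other family members and genes known to be induced by TNF, 68 were tested. In WT 4 of the 68 rose and 0 fell, where 3.58% and 1.09% of all genes did. The count was 21 without WT day 3 replicate 4, 10 without smSocs3-KO before replicate 1, 2 without smSocs3-KO day 3 replicate 2 or 3, and 0 without any 1 of the other 5 WT arrays or smSocs3-KO before replicate 4. The 4 were Il6 (a cytokine induced by TNF), Mmp3 (a matrix metalloproteinase), Mlkl (the effector of necroptosis) and Cd40 (a receptor of this family outside the naming rule). Il6 was at background on all 3 WT arrays before and at 2.66, 3.51 and -3.41 at day 3. Its mean was at least 43.4-fold higher (adjusted p = 0.0359). The -3.41 was on replicate 4, where the lowest level flagged as well above background was -4.32. Mlkl differed by 1.25 (SE 0.28, adjusted p = 0.0391) and Cd40 by 0.97 (SE 0.24, adjusted p = 0.0484).

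In smSocs3-KO 2 of the 68 rose and 0 fell, where 1.71% and 0.733% of all genes did. The count was 16 without WT day 3 replicate 4, 0 or 1 without any 1 of the 3 WT arrays before, the 3 smSocs3-KO arrays before or smSocs3-KO day 3 replicate 2 or 5, and 0 within slide 2 and with slide as a block. They were Mmp3, at 1.80 (SE 0.35, adjusted p = 0.0341) beside 2.17 (SE 0.35, adjusted p = 0.0304) in WT, and Tnfaip6 (the hyaluronan-binding protein TSG-6), at 3.68 (SE 0.77, adjusted p = 0.0395). The Mmp3 levels were 1.82, 1.74 and 2.59 in WT before and 4.37, 4.62 and 3.68 at day 3, and 3.10, 3.07 and 3.57 in smSocs3-KO before and 4.76, 4.68 and 5.72 at day 3. By limma none of the 68 differed between the genotypes before the challenge or at day 3, or in the interaction. Before the challenge Il6 was nonetheless at -2.63, -1.35 and -1.86 in smSocs3-KO. In WT it was at -5.97, -6.48 and -6.54, at background, without overlap. Of the 15 tested genes known to be induced by TNF, 2 lay wholly higher in smSocs3-KO before, Il6 and Mmp3, and 0 wholly lower. Over all genes these shares were 6.49% and 4.6%. The median difference of the 68 was 0.22 in WT and 0.29 in smSocs3-KO.

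The remaining members did not pass in either genotype. Tnfsf10 (TRAIL) gave -0.21 and -0.23 (SE 0.48 each) in WT and smSocs3-KO, and its death domain receptor Tnfrsf10b gave -0.03 and -0.44 (SE 0.43 each). Tnfrsf21 (DR6, a death domain receptor known from neurons) gave 0.70 (SE 0.48) and 1.56 (SE 0.48, adjusted p = 0.0981), with all smSocs3-KO day 3 levels above those before. Tnfrsf21 was tested only through those same day 3 arrays, so a higher level there was a condition of testing it. Tnfrsf4 (OX40) gave -0.02 and 0.05 (SE 0.15 each) and stayed between -0.77 and -0.42 on all 12 arrays.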

How the data were processed

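Aortic RNA of 12 mice was hybridised to 12 one-colour Agilent mouse arrays. The deposited scanner files give the processed signal intensity of each spot, which the authors' Feature Extraction software had background-subtracted and detrended. The file headers name version 10.7.1.1 and the submitters' processing notes 9.5.1.1. The series' deposited value table holds the same arrays as linear signal intensity with a median of 30.2 in every column, ranked as the scanner values are, and served as an alternative.

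Control spots and outlier spots were removed, spots of a probe averaged, and log2 intensities lowered by the 75th percentile of their own array. These log2 values were computed from the deposited intensities. Probes that every array of some group (3 of 3) flagged as well above background were kept (32291), and the brightest kept probe stood for a gene. limma 3.58.1 in R 4.3.3 fitted the 4 group means over all 12 arrays, with Benjamini-Hochberg adjustment over 22769 genes. The scripts were tested on simulated data with 200 changed genes. An exact permutation test of 3 against 3 arrays cannot go below p = 0.1 and was not used. Nothing in the labels says more of the replicates than that they are separate samples, and their number limits the precision.

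Alternatives were normexp with an offset of 50, quantile normalization, no filter or a stricter one, the mean of probes and other moderation. Others were only the groups compared, slide or replicate number as a block, single slides, each array left out, and the study's threshold. The last was p under 0.01, taken here as the unadjusted p of limma, with a fold above 4 or below 0.25. Named were Tnf and Tnfrsf12a, all members past a threshold, the 3 largest rises and falls in each pairwise comparison, their known partners, and untested members once; remaining members were added to complete the roles. The members and gene lists were chosen with earlier results of these data known. Promoter sequences are RefSeq's (GRCm38.p6), while probe positions are those of the files (mm9).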

Additional observations from a re-analysis of the deposited data

Results flagged for a closer look

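Tnf itself lies outside the comparisons, because its probe did not pass the filter on dim probes. It was nonetheless well above background on 3 of the 6 arrays at day 3, WT replicate 1 and smSocs3-KO replicates 2 and 5, and on 0 of the 6 before the challenge. The log2 levels on those 3 arrays were -3.72, -3.93 and -4.14.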

How the results depend on the processing

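The count of members that passed in WT was 2 and became 0 with no filter on dim probes, 4 with trend and robust moderation, 0 with only the groups compared, 0 within slide 1 and between 0 and 9 with 1 array left out. In smSocs3-KO it was 3 and became 5 with trend and robust moderation, 5 with only the groups compared, 0 with slide as a block, 1 within slide 2, 5 at the study's threshold and between 0 and 10 with 1 array left out. At day 3 the genotype count was 2 and became 1 with normexp, 1 with no filter, 0 with only the groups compared, 0 with slide as a block and between 1 and 3 with 1 array left out. Before the challenge it was 0 in all alternatives run, and for the interaction 0 in all but the study's threshold, which gave 1. Several genotype differences changed sign with slide as a block, a fit in which they rest on smSocs3-KO before replicate 1. Before the challenge Tnfsf11 and Tnfsf15 did so, to 0.055 and 0.046, as they did within slide 1. Among others, Ltb went from 0.75 to -1.75 and Tnfrsf13b from 0.13 to -0.79. At day 3 Tnfrsf13b went from 0.87 to -0.51 and Tnfrsf14 from -0.21 to 1.18, while Tnfrsf19 stayed at -1.26. With the replicate number as a block the counts were 0 in WT, 0 in smSocs3-KO and 0 at day 3. Whether the numbers pair the samples cannot be told. Of 11 same-numbered pairs, 4 had deviations correlated above 0.1, over a range from -0.40 to 0.46, and pairs of different numbers were not compared. The causes of these changes were not tested. Fits of only the groups compared give no interaction, and single slides give no genotype difference at day 3. Members at background, Tnf among them, are limited by signal over background.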
